A study of Schizosaccharomyces pombe with 2 samples.

Results

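The 10 genes described here encode the fission yeast cell cycle kinase Cdc2, 4 of its cyclins (cdc13, cig1, cig2 and puc1) and 5 regulators (cdc25, wee1, rum1, cdc10 and pom1). They were picked by gene identifier, not by a measured value, from a table of 12684 annotated features, of which 5113 are protein-coding genes. Native RNA of Schizosaccharomyces pombe was read on nanopores from 2 libraries, which the labels give as biological replicates of vegetative wild type cells. The cells were haploid and of the h- mating type, carried leu1-32 and pat1-L95G::kanR, and grew in EMM minimal medium at 30 °C for 2 days. The methods of the study give mid-log phase as the growth phase for its experiments. Both libraries thus carry the pat1 allele, in the gene of a kinase that holds back meiosis, although they are labelled wild type. There is 1 group and no second condition, so levels within these cells and the spread between the replicates are what can be described. Each mean ± SD below rests on n = 2.

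Cdc2 is the cyclin-dependent kinase that drives both S phase and mitosis in fission yeast. Its activity depends on a bound cyclin, on the removal of an inhibitory phosphate that Wee1 adds and Cdc25 takes off, and on the absence of the inhibitor Rum1. The transcription factor complex MBF, of which Cdc10 is a subunit, switches on genes for S phase, and Pom1, a kinase held at the cell ends, acts through Cdr2 on Wee1.

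The stretch of cdc2 on which Wee1 and Cdc25 act is shown because both of these genes are among the 10. It is the second coding exon, chrII:1500445-1500613 on the plus strand of RefSeq ASM294v3, and the capitals mark codons 14 and 15, for the threonine and the tyrosine that are phosphorylated, and codons 45 to 51, for the helix that contacts the cyclin.
cdc2 exon: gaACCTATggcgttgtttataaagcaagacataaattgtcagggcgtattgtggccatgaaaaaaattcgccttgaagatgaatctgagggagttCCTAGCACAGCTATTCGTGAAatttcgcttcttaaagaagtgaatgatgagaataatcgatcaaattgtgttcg
Of the genes in the set, cig2 and cig1 were those with the MBF core letters ACGCG, on either strand, in the 250 nt before their annotated transcript start. Their windows, chrI:2709532-2709781 for cig2 and chrIII:1226976-1227225 for cig1, both on the plus strand of the same assembly, are printed with each match in capitals.
cig2 promoter: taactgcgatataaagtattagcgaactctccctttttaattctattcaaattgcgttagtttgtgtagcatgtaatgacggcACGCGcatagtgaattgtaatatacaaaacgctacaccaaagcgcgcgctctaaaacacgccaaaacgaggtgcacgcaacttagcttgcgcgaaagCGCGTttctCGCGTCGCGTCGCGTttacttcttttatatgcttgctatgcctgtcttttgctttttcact
cig1 promoter: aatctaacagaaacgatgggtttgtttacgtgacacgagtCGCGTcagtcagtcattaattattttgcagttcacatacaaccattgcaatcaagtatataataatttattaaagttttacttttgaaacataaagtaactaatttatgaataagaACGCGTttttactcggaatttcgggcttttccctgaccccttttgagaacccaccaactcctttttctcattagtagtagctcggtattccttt
The cig2 window held 5 matches, which began at -167, -70, -61, -56 and -51 nt from the transcript start, and the last 3 stand end to end. The cig1 window held 3, of which a pair overlaps in the palindrome ACGCGT. Over all 5113 coding genes, 484 (9.47%) had at least 1 ACGCG in a window of this length, and 7 had as many as cig2 or more. Besides cig2, 4 of those 7 were genes listed here as MBF targets, cdc18, cdc22, cdt2 and tos4, and 5 of the 6 listed targets had at least 1 match. A palindrome ACGCGT was counted on both strands, as a pair of matches. The matches of cdt2 (7), cdc22 (6) and tos4 (5) included 3, 2 and 1 such palindromes, whereas cig2 and cdc18 had 0. With each palindrome counted once, cdt2, cdc22 and tos4 would fall below cig2. The full palindrome ACGCGT was present in 135 coding genes (2.64%), cig1 included and cig2 not. The shorter core and the count in cig2 as a bar were chosen after the palindrome was found missing from the cig2 window. Which genes held a match depended on the window. In the 1000 nt before the start codon, where 28.1% of coding genes had an ACGCG, the matches were in cig1 (3), cdc10 (3) and pom1 (2), and cig2, whose 5′ untranslated region is longer than that window, had 0. A match is a run of letters and not a measured binding site.

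Depth sets how finely these genes can be read. The libraries held 12871729 and 12579850 counts over all features in replicates 1 and 2. The 10 genes took 1385 and 1396 of them, which is 0.0410% and 0.0421% of the reads of coding genes. Every one had at least 40 reads in each library, so all 10 passed the minimum of 10 reads in sum used for testing. Counts were scaled to a common library total of 1000000 over all features (CPM), and levels of different genes were compared as CPM per kb of the annotated gene span. The median of the 10 genes was 7.74 CPM, against 9.94 CPM over all coding genes, and 2.89 CPM per kb, against 5.05 CPM per kb. By CPM, cdc13, cig2, cdc2 and cdc25 lay above the coding median, whereas per kb only cdc13 and cdc2 did.

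**Figure D1:**
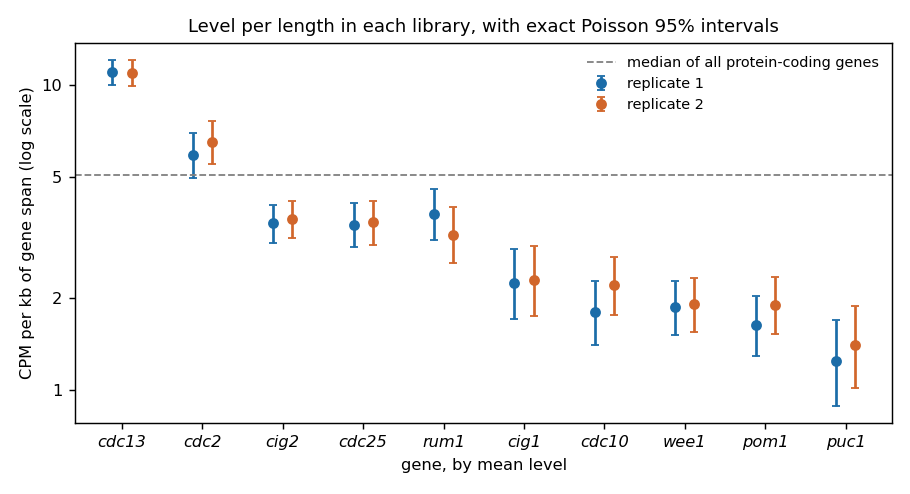
The plot gives CPM per kb of gene span (log scale) for each of the 10 genes in replicate 1 and replicate 2, with exact Poisson 95% intervals as bars and the median of all protein-coding genes (5.05) as a dashed line. The points of cdc13 and cdc2 lie above that line in both libraries, and those of the other 8 genes lie below it.

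cdc2 (SPBC11B10.09, chrII:1500208-1502095, plus strand), the gene of the kinase itself, had 143 reads in replicate 1 and 154 in replicate 2. This is 11.7 ± 0.801 CPM, or 6.18 ± 0.424 CPM per kb, a level per kb above that of 56.0% of coding genes. The gene has 5 introns, more than 96.7% of coding genes have, and its level per kb of exon was 7.53. suc1, whose small product binds the kinase, had 267 and 280 reads, so there were 0.536 and 0.550 cdc2 reads for each suc1 read. Per length the ratio was 0.372 ± 0.00699, with the kinase gene below its binding partner in both libraries.

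Among the cyclins, cdc13 (SPBC582.03, chrII:420111-423276, plus strand), the B-type cyclin of mitosis, had 447 and 435 reads, or 34.7 ± 0.105 CPM. Its 10.9 ± 0.0331 CPM per kb were the highest level of the set in both libraries and lay above that of 71.0% of coding genes. cig2 (SPAPB2B4.03, chrI:2709782-2714162, plus strand), the main cyclin of the start of S phase, had 198 and 200 reads, or 3.57 ± 0.0833 CPM per kb. cig1 (SPCC4E9.02, chrIII:1227226-1229303, plus strand), another B-type cyclin, had 60 reads in each library, or 2.27 ± 0.0368 CPM per kb. puc1 (SPBC19F5.01c, chrII:3699198-3701689, minus strand), a cyclin of G1, had 40 and 44 reads. At 1.33 ± 0.111 CPM per kb it was the lowest of the 10 in both libraries, above 11.1% of coding genes.

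The 4 cyclin genes together held 745 reads in replicate 1 and 739 in replicate 2. cdc13 took 60.0% of them in replicate 1 (56.4% to 63.5%, 95% interval by Wilson's method), and 58.9% in replicate 2, where the interval ran from 55.3% to 62.4%. The mean share was 59.4% ± 0.804, and the libraries did not differ in it beyond counting error (p = 0.672, two-sided Fisher's exact test). cig2 followed with 26.8% ± 0.344, then cig1 with 8.09% ± 0.0462 and puc1 with 5.66% ± 0.414. More than 1 in every 2 reads of these 4 cyclin genes was thus from the mitotic cyclin in both libraries, and the intervals of cdc13 and cig2 lay far apart. Other cyclin genes are not in this share. Divided by length, the shares were 60.4% for cdc13, 19.7% for cig2, 12.5% for cig1 and 7.32% for puc1, in the same order. For each cdc2 read there were 3.13 cdc13 reads in replicate 1 and 2.82 in replicate 2, or 1.77 ± 0.127 per length. In both libraries the exact 95% interval of that ratio per length stayed above 1, with lower bounds of 1.54 and 1.40.

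cdc25 and wee1 encode the phosphatase and the kinase with opposite actions on the tyrosine marked in the cdc2 exon. cdc25 (SPAC24H6.05, chrI:479228-482373, minus strand) had 141 and 140 reads, or 3.51 ± 0.0393 CPM per kb. wee1 (SPCC18B5.03, chrIII:721804-725835, plus strand) had 97 reads in each library, or 1.89 ± 0.0307 CPM per kb. There were 1.45 cdc25 reads per wee1 read in replicate 1 and 1.44 in replicate 2, with exact 95% intervals of 1.11 to 1.90 and 1.11 to 1.89. A two-sided Fisher's exact test found no difference of this ratio between the replicates (p = 1), and per length it was 1.86 ± 0.00934. The phosphatase RNA was therefore the more abundant of the pair on either scale. mik1, a second kinase of the same tyrosine, had 48 and 42 reads, so that wee1 stood at 1.41 times mik1 per length in replicate 1 and at 1.62 times in replicate 2, with exact 95% intervals of 0.990 to 2.04 and 1.11 to 2.38. Per length the interval thus reached 1 in replicate 1. By reads wee1 was above mik1 in both libraries, at 2.02 and 2.31 reads per mik1 read (lower 95% bounds 1.42 and 1.59). pyp3, a second phosphatase of Cdc2, had 142 and 115 reads on a much shorter gene, and cdc25 stood at 0.466 and 0.571 times pyp3 per length, below 1 in both intervals (upper bounds 0.592 and 0.737). This direction came with the division by length, since by reads the ratio was 0.993 and 1.22 and both intervals reached 1.

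rum1 (SPBC32F12.09, chrII:2799677-2801917, plus strand), the gene of the inhibitor that keeps Cdc2 inactive in G1, had 109 and 91 reads. Its level was 7.85 ± 0.873 CPM, or 3.50 ± 0.389 CPM per kb, next to that of cig2 and cdc25. Of the 10 genes it had the largest log2 ratio toward replicate 1, at 0.23. For each cdc2 read there were 0.762 and 0.591 rum1 reads, or 0.570 ± 0.102 per length, with an upper 95% bound of 0.830 in replicate 1 and 0.649 in replicate 2. cig2 and rum1, a cyclin and an inhibitor of its kinase complex, were ranked by reads but not per length. By reads there were 1.82 and 2.20 cig2 reads per rum1 read (lower 95% bounds 1.43 and 1.71), whereas per length the ratio was 0.929 in replicate 1 and 1.12 in replicate 2, with intervals that reached 1 in both.

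cdc10 (SPBC336.12c, chrII:2760741-2763800, minus strand), the shared subunit of MBF, had 71 and 85 reads, or 2.01 ± 0.287 CPM per kb. Its log2 ratio of -0.29 was the largest toward replicate 2. The DNA-binding MBF subunits had 100 and 98 reads (res1) and 51 and 48 reads (res2). Per length, cdc10 was at 0.774 ± 0.109 times res1 and 1.37 ± 0.231 times res2, and in each comparison the exact 95% interval reached 1 in 1 of the 2 libraries. pom1 (SPAC2F7.03c, chrI:534120-537873, minus strand), the cell end kinase, had 79 and 90 reads, or 1.77 ± 0.192 CPM per kb. cdr2, whose product Pom1 inhibits, had 132 and 118 reads. pom1 stood at 0.506 and 0.645 times cdr2 per length, with upper 95% bounds of 0.674 and 0.855, so that it was below its target per length in both libraries. By reads the ratio was 0.598 and 0.763, and the interval reached 1 in replicate 2 (upper bounds 0.797 and 1.01).

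In order of level per kb, the genes ran cdc13, cdc2, cig2, cdc25, rum1, cig1, cdc10, wee1, pom1 and puc1. Neighbours were taken to differ where their exact Poisson 95% intervals did not overlap in either library and the replicate values stood apart. This held for 2 of the 9 neighbouring pairs, cdc13 above cdc2 (1.77 times) and cdc2 above cig2 (1.73 times). The direction between cdc2 and cig2 came with the division by length, since by CPM cig2 (15.6) was above cdc2 (11.7). cig2, cdc25 and rum1, at 3.57, 3.51 and 3.50 CPM per kb, formed a group that the replicates did not separate. Between rum1 and cig1 the replicate values stood apart, but the intervals overlapped in 1 library. From cig1 down to puc1 no gene differed from its neighbour. Over all 45 pairs, 30 differed by the same rule. No test across samples was made, since 2 values against 2 cannot give an exact permutation p below 0.333.

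**Figure D2:**
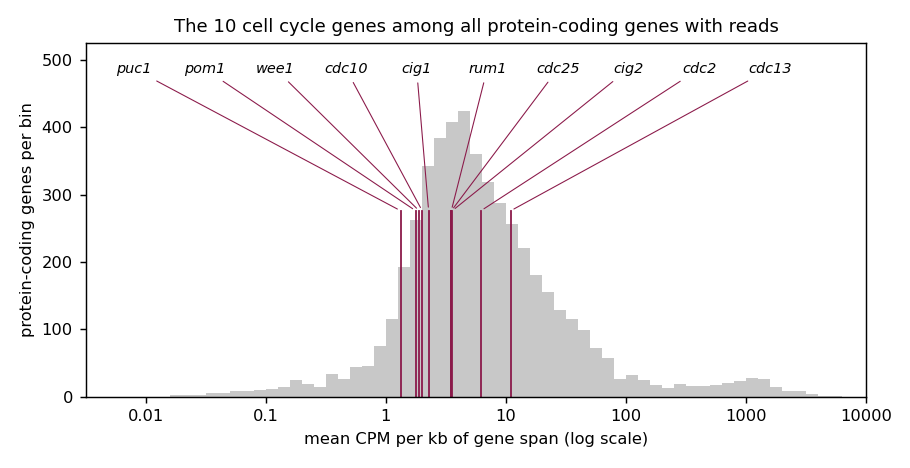
The histogram counts protein-coding genes by mean CPM per kb of gene span (log scale), for genes with at least 1 read, and each of the 10 genes is drawn as a labelled line at its own mean. The lines run from puc1 at 1.33 to cdc13 at 10.9 CPM per kb, near the middle and the lower side of the distribution.

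The order depended on how length was treated. Without a length correction cig2, at 15.6 ± 0.365 CPM, came before cdc2, and only 1 neighbouring pair differed. The order was then cdc13, cig2, cdc2, cdc25, rum1, wee1, pom1, cdc10, cig1 and puc1, in which 4 of the 10 genes kept their place. In replicate 1 alone 5 kept their place, with rum1 in front of cig2 and cdc25 and wee1 in front of cdc10, and in replicate 2 alone all 10 did. With the summed exon length in place of the gene span, cdc25 and cig2 changed places and 2 pairs still differed. In direct RNA sequencing a read starts at the 3′ end of 1 molecule, so a long gene need not give more reads than a short one. Across the 4921 coding genes with at least 10 reads, CPM and gene span had a Spearman rho of -0.00691. This is a correlation across genes, which share their libraries and are not independent replicates. All 10 genes were longer than the coding median, with a median span of 3103 nt against 1773 nt, so a division by length lowers them relative to other genes.

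The replicates were then set against each other gene by gene, with an exact binomial test (two-sided). It asked whether replicate 1 held its expected part of a gene's reads, and p-values were adjusted by Benjamini-Hochberg over all 6752 features with at least 10 reads. This compares these libraries and not conditions. Of the 10 genes, 0 were called at an adjusted p under 0.05, against 4.19% of all features tested (283 of 6752), and 0 had an unadjusted p under 0.05. With 10 genes, a count of 0 is near that background share and is no result about these genes in particular. The smallest p was that of cdc10, 0.230, with an adjusted p of 0.688 (exact binomial test). The log2 ratios, replicate 1 over replicate 2 with 0.5 added to each count, lay between -0.29 and 0.23, with 2 genes toward replicate 1 and 8 toward replicate 2. Their median size was 0.094, against 0.16 over the 3516 coding genes with 80 to 900 reads in sum. A call would have needed a log2 ratio toward replicate 1 of 0.31 for cdc13, the most covered gene, and of 1.04 for puc1, the least covered. Smaller differences were not detectable at this depth.

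**Figure D3:**
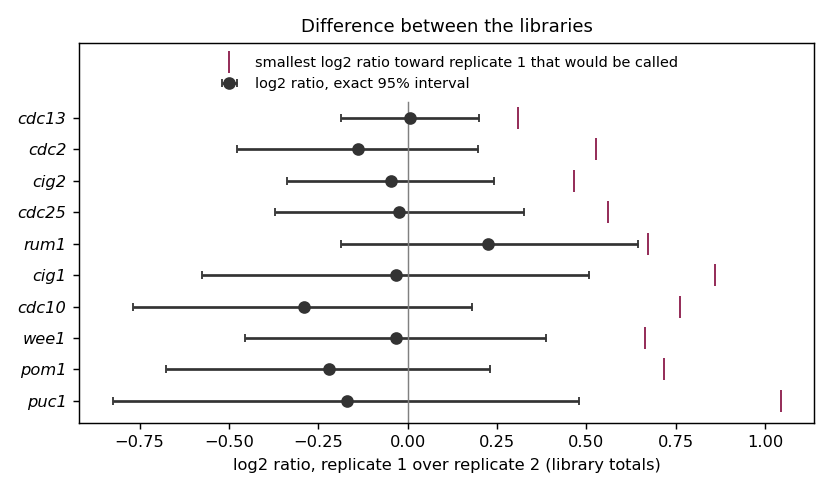
Each point is the log2 ratio of replicate 1 over replicate 2 for 1 gene, scaled by library totals, with its exact 95% interval, and the vertical tick is the smallest ratio toward replicate 1 that the test would have called. All 10 intervals contain 0 and end short of the tick, which lies between 0.31 for cdc13 and 1.04 for puc1.

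What else is annotated at these genes bears on their counts. No feature overlapped any of them on the same strand, and wee1 and rum1 had no overlapping feature at all. On the opposite strand 16 features overlapped the other 8 genes. Of these, 12 were lncRNAs with at most 8 reads, 7 of them at 0 in both libraries, and together they held 0.930% and 0.782% of the reads of both strands. SPNCRNA.5213 (chrII:1501675-1502015), for instance, lies wholly inside cdc2 and had 0 reads in either library, where a count of 0 allows up to 0.233 and 0.238 CPM. The most covered was SPNCRNA.846 inside cig2, with 7 and 8 reads. The other 4 features were coding genes that converge on cdc13, cig2, puc1 and cdc10. pmc1 shares 1459 nt with the 3′ part of cig2 and had 161 and 126 reads, vps52 shares 471 nt with cdc10 and had 82 and 91, SPBP8B7.31 shares 149 nt with puc1 and had 99 in each library, and dsh1 shares 8 nt with cdc13 and had 105 and 95. With these included the opposite strand held 24.9% and 23.2% of the reads, counted over whole features. How the counting used strand is not given in the sources used here, so reads of cig2 and pmc1 in their shared stretch cannot be assigned with certainty.

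Most of the genes have long untranslated regions in the annotation, which was not used to choose them. cig2 has a 5′ untranslated region of 1298 nt, puc1 of 1037 nt and rum1 of 912 nt, which is longer than 99.3%, 98.6% and 98.0% of the 4511 coding genes with one annotated. Those of cdc25 (733 nt), cdc13 (659 nt), wee1 (430 nt) and cig1 (319 nt) were each longer than at least 86.6% of these. cdc10 (210 nt) and pom1 (148 nt) lay above the median of 97 nt, and cdc2, with 90 nt, was the 1 gene below it. The median of the 10 was 544.5 nt. The 3′ untranslated regions were above the coding median of 261 nt in 10 of 10 genes, up to 1847 nt in cig2. In cig2 and rum1 only 28.2% and 30.9% of the transcript is coding, whereas in pom1 86.9% is. Of other pathway genes, 7 of 12 Cdc2 regulators, 3 of 6 MBF targets and 6 of 12 ubiquitin ligase genes and targets were above the median 5′ length. Among the long ones were cdr1 (861 nt) and the cyclin gene pas1 (1438 nt). The transcript parts were compared after the annotation had been looked at, and no test was made.

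**Figure D4:**
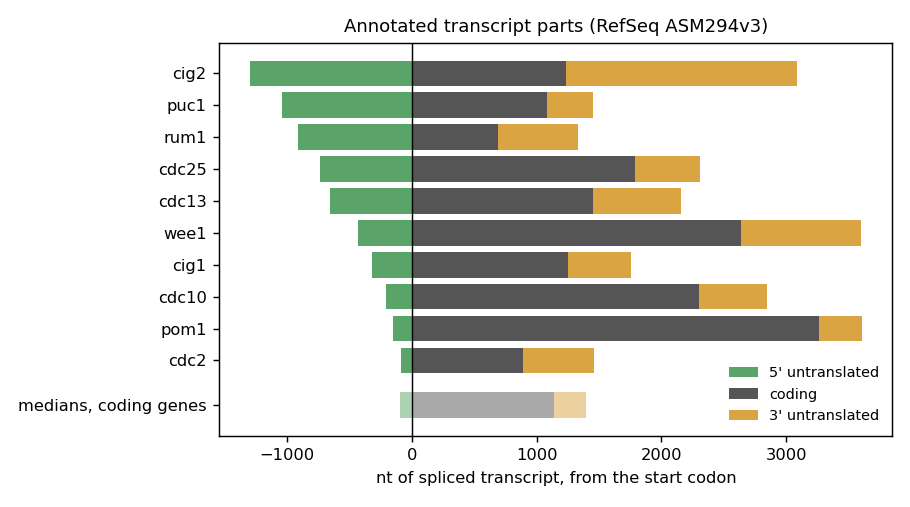
Bars give the annotated 5′ untranslated, coding and 3′ untranslated lengths (nt of spliced transcript, counted from the start codon) of the 10 genes in order of 5′ length, with the medians over coding genes as pale bars at the bottom. cig2, puc1 and rum1 have 5′ parts of 1298, 1037 and 912 nt, against a median of 97 nt.

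Mmi1, an RNA-binding protein that the study follows, recognizes the letters TNAAAC (N for any base) in meiotic transcripts. Counted in spliced transcripts, the 10 genes had a median of 2.23 matches per kb, against 1.64 per kb over all coding genes. cdc25 had 12 matches, 3.94 per kb, above 95.1% of coding genes, and rum1 had 3, 1.34 per kb, above 37.3%. The meiotic genes listed here ran from 0.790 per kb (mfr1) and 0.827 (rem1) through 1.80 (mes1) to 5.60 (rep1) and 7.90 (crs1). These counts are a description of the letters, chosen after other values of these genes were known.

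The 10 genes were last set beside 44 other genes of the pathway. Of these, 42 had at least 10 reads, 0 were called between the libraries by the exact binomial test, and 3 had an unadjusted p under 0.05, the 14-3-3 gene rad24, the MBF target tos4 and the meiotic MBF activator rep1. Over the 4921 coding genes tested, 204 were called and 728 had an unadjusted p under 0.05, a larger share than 3 of 42, and nothing is read from these counts about the pathway. Among the 5 other cyclins, srb11 (cyclin C of Mediator) and pas1 stood at 9.59 and 9.53 CPM per kb, close below cdc13, and pch1, mcs2 and lsc1 at 2.83 to 2.91 CPM per kb. Among the 12 Cdc2 regulators 4 were above the coding median per kb, rad24 (134), suc1 (16.6), mcs6 (7.01) and pyp3 (6.84), while mik1 (1.25) and cdr1 (1.56) were near puc1 and pom1. The 5 MBF partners ran from 1.47 CPM per kb (res2) to 4.27 (rep2), all below that median. Of the 6 MBF targets, the ribonucleotide reductase gene cdc22 was at 20.4 CPM per kb and tos4 at 8.49, against 1.75 for the licensing gene cdt1 and 2.30 for cdc18. Of the 12 ubiquitin ligase genes and targets, skp1 (15.03), nuc2 (10.5) and slp1 (7.54), the activator that directs Cdc13 and securin to destruction, were above the median, and the G1 activator ste9 was at 1.46 CPM per kb. The median of the 12 was 2.54, against 2.89 for the 10 genes.

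**Figure D5:**
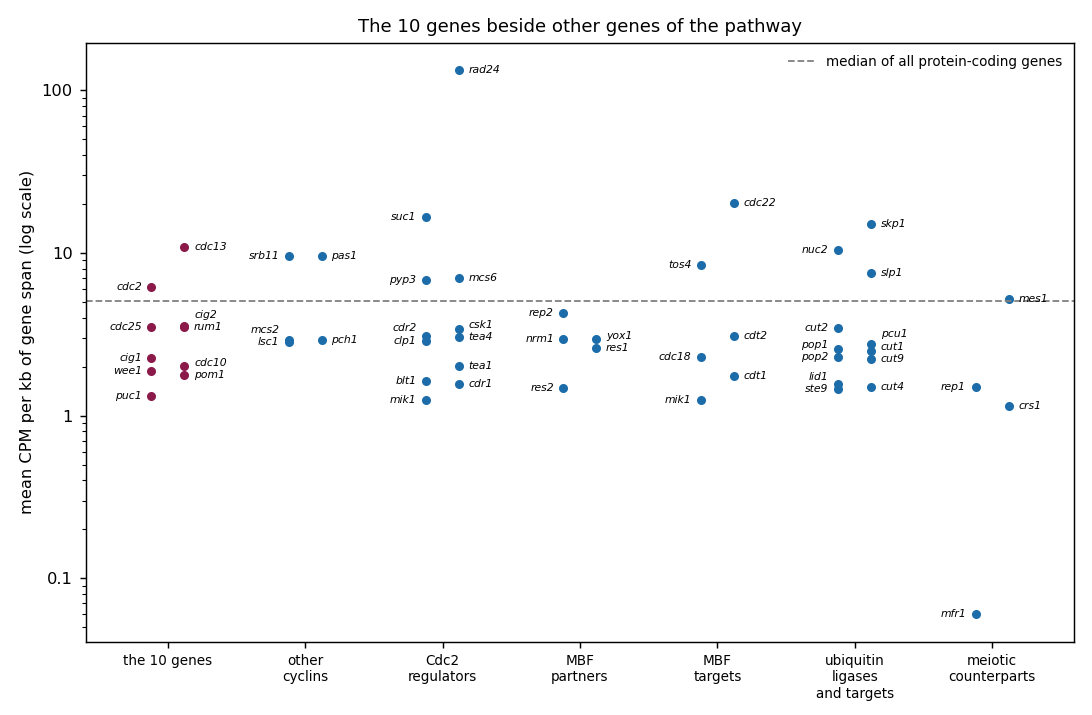
Points are mean CPM per kb of gene span (log scale) of the 10 genes and of 6 lists of other pathway genes (mik1 is in 2 lists), with the median of all protein-coding genes as a dashed line. rem1, at 0 reads, cannot be drawn on the log axis, and rad24 at 134 CPM per kb is the highest point.

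The listed genes of meiosis served as a check of the vegetative label. The meiotic cyclin gene rem1 had 0 reads in both libraries and crs1 had 17 and 18. Per length, cig2 stood at 3.10 ± 0.103 times crs1. With so few crs1 reads, the exact 95% interval of that ratio ran from 1.93 to 5.56 in replicate 1. In replicate 2 it ran from 1.87 to 5.21. At 1.15 ± 0.0652 CPM per kb, however, crs1 was close to puc1 (1.33). mfr1, a meiotic activator of the anaphase-promoting complex, had 1 read in each library. mes1, a meiotic inhibitor of that complex, was not low, with 74 and 83 reads, or 5.20 ± 0.506 CPM per kb. rep1 had 53 and 29 reads, a log2 ratio of 0.83 with an exact binomial p of 0.0111 and an adjusted p of 0.161. The mating type fitted the label: the M-specific genes mfm1, mfm2, mfm3, mam1 and mam2 had between 567 and 4405 reads in each library, and the P-specific genes map2 and map3 had at most 14. The cultures were not described as synchronized, and in bulk RNA fewer cells at the stage that expresses a gene and less RNA per cell cannot be told apart.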

How the data were processed

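Total RNA of 2 replicate cultures was depleted of rRNA, polyadenylated in vitro and sequenced as RNA on nanopores. Base calls were made by the authors with dorado, and minimap2 mapped the reads with splicing allowed. Which tool counted them, whether by strand and on which annotation, is not given in the sources used here. The deposited values, entered here as estimated counts only because a shifted header sets the name Length over the replicate 1 column, are whole-number raw counts of reads per feature, and rounding changed 0 of them. The header has an empty cell, so names stand 1 cell right of their data, and columns were aligned by content (in each line the length matched the start and end).

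Names, transcripts and sequences came from RefSeq ASM294v3, whose coordinates were equal for 12594 of 12684 features, the 10 genes included. The members and the lists of pathway genes were chosen with earlier results of these data known. The text names the 10 genes, listed genes and features that overlap a member. CPM was computed over all features. How reads over several features were counted is not stated, so totals are sums of assigned counts. Intervals are exact Poisson, exact binomial or Wilson at 95% and cover counting error only. A quasi-likelihood fit was not made, since 1 library against 1 leaves no residual degrees of freedom. The exact binomial test (scipy 1.17.1, pandas 2.3.3) used library totals and was tested on simulated data. These were drawn with counting error only, so they do not show how often the test calls genes where replicates vary more than that. The edgeR 4.0.16 common dispersion gave a biological coefficient of variation of 5.19% over coding genes. Alternatives were TMM factors (edgeR) and size factors (DESeq2 1.42.0, R 4.3.3), other pseudocounts (0.1 and 5), count minimums (none and 100), coding features alone, other length corrections and each library left out. Size factors were computed on features with at least 10 reads, a minimum set after those on all features gave equal library sizes.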

Additional observations from a re-analysis of the deposited data

How the results depend on the processing

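The count of 0 of the 10 genes called between the libraries stayed at 0 with TMM factors, DESeq2 size factors, no count minimum, a minimum of 100 reads (9 genes tested) and coding features alone, with a smallest member p from 0.158 to 0.230. Of the listed pathway genes, 1 (tos4) was called with a minimum of 100 reads, and 0 under the other settings. The median level of the 10 genes was 29.4 CPM over coding features only, a change of denominator, and 7.47 to 8.002 CPM with either library left out. The number of neighbouring pairs that differed in level per kb was 1 with no length correction and 2 to 3 with either library left out. The share of cdc13 among reads of the 4 cyclin genes was 60.4% per length and 58.9% to 60.0% with either library left out. The cdc25 reads per wee1 read were 1.86 per length and 1.44 to 1.45 with either library left out. Reads on the opposite strand took 23.2% to 24.9% with either library left out. TMM and DESeq2 scaling moved every log2 ratio by 0.062 and 0.059, which turned 4 negative ratios near 0 to positive ones. With TMM factors they were 0.029 (cig1), 0.029 (wee1), 0.015 (cig2) and 0.039 (cdc25), and with DESeq2 size factors 0.026, 0.026, 0.012 and 0.036 in the same order. Other pseudocounts turned no ratio. No paired analysis was possible because only 1 group was sequenced. With 40 to 447 reads per gene and library, depth limits what can be separated among the lower genes.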
